A study of Mus musculus with 24 samples.

Results

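Serum response factor (SRF) was deleted in the mouse mesoderm lineage, and the effect of the deletion on RNA of the caudal end of the embryo was compared between embryonic day 8.5 (E8.5) and E9.0. The quantity described is a difference of differences: knockout minus control at E9.0, less knockout minus control at E8.5, on the log2 scale. It is positive where the RNA ended relatively higher in knockouts over this interval and negative where it ended relatively lower. The comparison takes 16 of the 24 arrays of the series, 4 in each of 4 groups, and all 25697 probes of the array. After dim probes were set aside, 10679 features (9834 genes with a symbol and 845 probes without one) were tested. Of these, 188 had a knockout effect that differed between the stages.

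Knockout embryos are labelled Srf(-/-) and control embryos Srf(+/-), both of strain C57Bl/6, although the titles call the controls wt. Both came from parents that each carried the SRF(flex1) allele over a wild-type allele and were homozygous for T:cre, per the labels. By these labels the controls carry T:cre as well and are heterozygotes. The design text of the series instead names knockouts SRF(flex/flex); T:cre and gives no genotype for their control littermates, so whether a control had 1 or 2 intact Srf copies is not settled by the labels. T:cre expresses Cre recombinase under the promoter of T (Brachyury), a gene of the primitive streak and of mesoderm leaving it, so cells of other lineages in the dissected tissue can keep Srf. The tissue is the unsegmented caudal end, the part of the embryo behind the last formed somite, at E8.5 and E9.0. The labels do not say whether replicates are single embryos, pools or litters. The p-values therefore rest on the spread among the samples given, part or all of which may be technical.

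SRF is a MADS-box transcription factor that binds a DNA sequence called the CArG box. With myocardin-related cofactors it drives genes of the actin cytoskeleton when monomeric actin is used up, and with ternary complex factors it drives immediate early genes after growth factor signalling. In the gastrulating and elongating embryo it is known for its role in mesoderm, where cells leave the streak, spread and adhere. The caudal end at these stages holds the tail bud and presomitic mesoderm, which supply new somites, together with neural tube, gut endoderm, vessels and circulating primitive red cells.

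The RefSeq promoter windows (250 bases before to 50 after the start site, build GRCm38.p6) of 2 genes show the CArG box in this setting. They are Srf itself, at chr17:46556113-46556412 on the minus strand, and the actin gene Actc1, at chr2:114052826-114053125 on the minus strand. Capitals mark the CArG boxes.
Srf: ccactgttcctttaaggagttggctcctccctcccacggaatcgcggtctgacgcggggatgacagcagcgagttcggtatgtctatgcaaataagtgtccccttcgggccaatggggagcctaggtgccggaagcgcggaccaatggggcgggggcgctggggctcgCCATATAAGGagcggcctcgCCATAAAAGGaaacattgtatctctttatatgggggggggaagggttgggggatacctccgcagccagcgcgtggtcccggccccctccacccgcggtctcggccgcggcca
Actc1: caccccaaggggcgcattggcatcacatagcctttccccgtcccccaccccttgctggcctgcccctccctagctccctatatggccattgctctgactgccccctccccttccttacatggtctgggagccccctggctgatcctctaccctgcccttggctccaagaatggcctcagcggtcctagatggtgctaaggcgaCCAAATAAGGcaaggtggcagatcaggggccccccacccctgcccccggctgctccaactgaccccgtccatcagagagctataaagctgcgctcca
Srf held 2 matches, starting 82 and 62 bases before the start site, and Actc1 held 1, starting 47 bases before it. Among the SRF actin targets tested, 7 of the 23 with a promoter in the table held a CArG box (30.4%), against 1.71% of all tested genes and 1.81% of all 27025 genes in the table. The window of Wdr1 held none. Such a match is a description of the letters, not a binding site.

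The arrays of the 4 groups were alike in brightness. Between 12316 and 13685 probes were detected per array, and the median intensity lay between 36.80 and 45.89. The E8.75 arrays of the series, whose medians reached 173.3, were normalized apart and enter only the last comparison below and 1 alternative fit. One control array at E8.5, replicate 3, carried more red cell RNA than its group, and knockout replicate 4 at E8.5 had the fewest detected probes, so counts without each of them are given where they bear on a result. Xist exceeded the Y-linked genes on 2 control and 1 knockout arrays at E8.5 and on 3 control and 4 knockout arrays at E9.0, so embryo sex was not balanced. With that balance as a covariate 121 features differed, 107 of them among the 188.

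Few features differed between knockouts and controls at E8.5, and many did at E9.0. Limma's moderated test with Benjamini-Hochberg adjustment over all 10679 features called 7 features at E8.5 (0.0655%), 1 higher (0.00936%) and 6 lower (0.0562%) in knockouts. At E9.0 it called 2225 (20.8%), 1208 higher and 1017 lower. The difference between the 2 effects was called for 188 features (1.76%), of which 128 (1.2%) had a higher and 60 (0.562%) a lower value, and 1848 features had an unadjusted p under 0.05. A feature counts as called at an adjusted p under 0.05 throughout. The background of 1.76% beside list counts is the share called in either direction, and each list share set against it counts both directions. In 1 direction the background is 1.2% (higher) or 0.562% (lower). The median difference over all features was 0.01 and 51.0% of features were positive. Quantile normalization gives every array the same distribution, so these 2 values cannot show a shift of all RNA.

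The number of calls depended on single arrays. It was 398 without control replicate 1 at E8.5, and 75, 121 and 80 without control replicates 2, 3 and 4 there. It was 95 without knockout replicate 1 at E8.5 and 234 (148 higher, 86 lower) without knockout replicate 4 there. It was 95 and 74 without control replicates 3 and 4 at E9.0, and 123, 123 and 92 without knockout replicates 2, 3 and 4 at E9.0. With arrays weighted by their agreement with their group, 588 features were called, 57.8% of them higher against 68.1% in the unweighted fit, and the 188 were all among them. Where leaving out an array ended the call of a gene described here, this is said beside its value.

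The 128 features with a higher difference had a median knockout effect of 0.02 at E8.5 and 0.79 at E9.0, and the 60 with a lower one had -0.04 and -0.78. Of the 188, 187 were also called at E9.0 and 2 at E8.5. Their 4 knockout and 4 control arrays did not overlap at E9.0 in 188 of 188 (background 26.2%) and at E8.5 in 6 (background 2.03%). These values chose the 188, so the medians and counts describe them and support nothing. The sizes ran from 0.45 to 2.50 on the log2 scale, and 42 exceeded 1. For 176 of them a gene symbol is known.

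The 188 divide by which genotype moved with stage. From E8.5 to E9.0, 3803 features changed in controls (35.6%) and 3776 in knockouts (35.4%). Among the 188, the change in knockouts was the larger for 113 and the change in controls for 75, and in 124 the estimated changes had opposite signs. Over all 10679 features the same counts were 5366, 5313 and 2836. The 4 knockout arrays at E9.0 lay above or below all 12 others in 108 of the 188 (background 8.17%), and the 4 control arrays at E9.0 did so in 72 (background 6.47%). These counts too use the values that chose the features. The genes below show both forms.

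**Figure D1:**
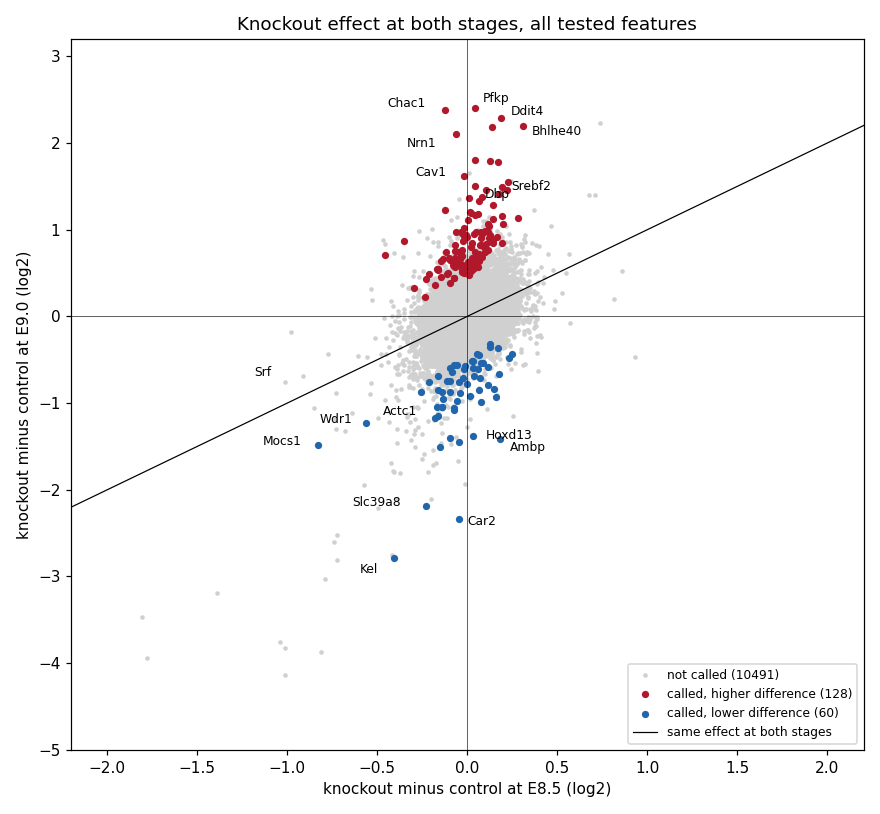
Knockout minus control at E8.5 (x axis, log2) against knockout minus control at E9.0 (y axis, log2) for the 10679 tested features, each a point and each effect from 4 against 4 arrays. The 128 features with a called higher difference (red) and the 60 with a called lower one (blue) spread along the vertical axis near 0 at E8.5, and Srf lies near the line of equal effect.

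Srf itself was lower in knockouts at both stages, by a like amount. Its log2 signal was 8.22, 8.46, 8.46 and 8.34 in controls at E8.5, then 7.57, 7.29, 7.12 and 7.43 in knockouts. At E9.0 it was 8.37, 8.24, 8.38 and 8.49 in controls and 7.62, 7.81, 7.36 and 7.66 in knockouts. No knockout array reached a control array at either stage. The knockout effect was -1.01 ± 0.11 (SE) at E8.5 and -0.76 ± 0.11 at E9.0, and their difference, 0.26 ± 0.155, did not pass (adjusted p = 0.42). A second Srf probe gave -0.37 and -0.44. The labels do not say which part of the gene either probe reads or whether it lies in the deleted part.

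Actin cytoskeleton genes known as SRF targets had a negative median knockout effect at both stages, and few passed the test of the difference. Of 36 genes listed, 26 were tested. Their median knockout effect was -0.20 at E8.5 and -0.41 at E9.0. At E8.5 3 of them were called lower (background 0.0562%) and none higher, and at E9.0 15 were called lower and 1 higher, against 9.52% and 11.3% of all features. For the difference, 2 fell (7.69% of the list, background 1.76%), 17 of 26 were negative, and the median was -0.20 against 0.01 over all features. Leaving out 1 array moved that median between -0.23 and -0.10, the latter without control replicate 1 at E9.0. The mean log2 signal of the 26 ran from 8.06 to 8.19 on control and from 7.84 to 7.90 on knockout arrays at E8.5, and from 8.0 to 8.17 on control and from 7.59 to 7.72 on knockout arrays at E9.0. Knockout arrays lay below all control arrays at both stages, by more at E9.0.

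The 2 called members behaved differently. Wdr1, which helps cofilin take actin filaments apart, was one of the few genes already lower at E8.5. Its controls read 10.74, 10.73, 10.79 and 10.89 at E8.5, then 10.85, 10.67, 10.75 and 10.68 at E9.0. Its knockouts read 10.35, 10.13, 10.20 and 10.21 at E8.5, then 9.58, 9.46, 9.37 and 9.63 at E9.0. Controls stayed level and knockouts stepped down with stage, with no overlap at either stage. The effect went from -0.56 to -1.23, a difference of -0.67 ± 0.117 (adjusted p = 0.00916), and another probe of Wdr1 gave -1.09.

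Actc1, the cardiac form of alpha-actin, showed the other form: controls gained it and knockouts did not. Control arrays read 4.53, 4.21, 4.42 and 4.39 at E8.5, then 5.91, 5.06, 5.10 and 5.41 at E9.0. Knockout arrays read 4.23, 4.20, 4.18 and 4.21 at E8.5, then 4.18, 4.17, 4.20 and 4.26 at E9.0, where the probe was detected on none of the 8. At E9.0 the control mean was at least 1.88-fold above the knockout level, taking the floor of the detected signal for the undetected arrays. The called difference rests partly on signal near the background, and the E9.0 controls may have brought the probe past the filter on dim probes. The call, counted in the share of the list above, is therefore not support, and no p is given. The call was lost with all 24 arrays in 1 fit and with the authors' deposited values. Several other members missed the test: Tpm1, a tropomyosin, had -0.68 (adjusted p = 0.0777) and Vcl, the adhesion protein vinculin, had -0.40 (adjusted p = 0.155). Fhl1, a LIM-domain protein, lay on the other side at 0.46 (adjusted p = 0.0584). Of the 14 immediate early genes tested none was called for the difference, with a median of 0.07, and the smallest p was that of Ccn2, a matricellular growth factor, at -0.79 (adjusted p = 0.0841).

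Genes of the hypoxia response held the largest share of calls among the lists. Hypoxia-inducible factor (HIF) induces them when oxygen-dependent prolyl hydroxylases slow down, and many also respond to other stress. Of 30 genes listed, 21 were tested, and 7 rose and 1 fell in the difference (38.1% of the list, background 1.76%). The list's median was 0.58, and 16 of 21 were positive. At E8.5 its median knockout effect was 0.01, and at E9.0 it was 0.50. At E9.0 12 members were called higher and 3 lower, against 11.3% and 9.52% of all features. The list mean was between 7.13 and 7.27 on the 4 knockout arrays at E9.0 and between 6.28 and 6.93 on the other 12, so the former stood apart. Knockout arrays at E8.5 disagreed with each other, with 6.54, 6.90, 6.93 and 6.28 in replicates 1 to 4.

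Promoters of 2 of the genes that rose show the short core of the HIF binding sequence. They are Pfkp, of the glycolysis list described below, and Egln3, of the hypoxia list. Pfkp lies at chr13:6648722-6649021 and Egln3 at chr12:54203825-54204124, both on the minus strand (RefSeq, GRCm38.p6). Capitals mark ACGTG or GCGTG, searched on both strands.
Pfkp: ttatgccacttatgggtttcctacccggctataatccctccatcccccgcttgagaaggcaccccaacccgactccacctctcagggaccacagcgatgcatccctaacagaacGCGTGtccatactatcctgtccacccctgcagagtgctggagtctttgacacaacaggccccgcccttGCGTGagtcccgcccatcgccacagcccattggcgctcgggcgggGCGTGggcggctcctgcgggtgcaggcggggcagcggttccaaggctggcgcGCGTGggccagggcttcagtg
Egln3: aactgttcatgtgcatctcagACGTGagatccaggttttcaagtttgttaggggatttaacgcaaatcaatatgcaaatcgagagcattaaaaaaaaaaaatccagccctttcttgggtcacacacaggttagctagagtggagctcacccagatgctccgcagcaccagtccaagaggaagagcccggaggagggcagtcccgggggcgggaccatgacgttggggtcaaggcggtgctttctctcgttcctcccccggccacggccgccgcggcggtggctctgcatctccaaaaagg
The Pfkp window held 4 matches and the Egln3 window 1. The motif is short and common: 83.3% of the 18 tested hypoxia genes with a promoter held it, as did 66.4% of all tested genes and 46.7% of all genes in the table.

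Egln3, a prolyl hydroxylase that marks HIF for destruction and is itself a HIF target, moved in both genotypes. Controls read 6.46, 6.53, 6.66 and 6.58 at E8.5, then 6.33, 6.13, 6.21 and 5.85 at E9.0. Knockouts read 6.38, 6.85, 6.59 and 6.49 at E8.5, then 7.35, 7.52, 7.49 and 6.98 at E9.0. The groups overlapped at E8.5, and at E9.0 every knockout array exceeded every array of the other groups. The difference was 1.19 ± 0.184 (adjusted p = 0.00554), with controls changing by -0.43 and knockouts by 0.76.

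Ddit4, a stress-induced inhibitor of mTORC1, rose by a difference of 2.10 ± 0.408 (adjusted p = 0.0165). Its knockouts read 7.94, 8.99, 9.28 and 7.51 at E8.5, then 10.26, 10.63, 10.13 and 10.46 at E9.0, while its controls lay between 7.69 and 8.54 at both stages. The 4 knockout arrays at E9.0 were above all others. Bhlhe40, a transcriptional repressor, had 1.89 ± 0.339 (adjusted p = 0.0106). Ndrg1, a HIF-induced differentiation gene, had 1.29 ± 0.218 (adjusted p = 0.0078), and a second probe gave 1.25. P4ha2, a collagen prolyl hydroxylase, differed through its controls, which went from 6.88, 6.77, 6.83 and 7.12 to 5.78, 6.01, 6.03 and 5.90. Its knockouts stayed level at 6.72, 6.97, 6.85 and 7.04 and then 6.69, 7.0, 6.87 and 6.81, a difference of 0.91 ± 0.143 (adjusted p = 0.00554). Ppp1r3c, a subunit that brings protein phosphatase to glycogen, had 1.66 ± 0.364 (adjusted p = 0.0283), and its call ended on leaving out any 1 of 8 of the 16 arrays. Vegfa, the chief growth factor of vessels, had 1.04 ± 0.202 (adjusted p = 0.0165); it is named because its value was seen, not by the naming rule.

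Ankrd1, the member that fell, is better known as a muscle and YAP target than as a hypoxia gene. It was detected on all 4 controls at E9.0 (4.89, 4.77, 4.96 and 5.75) and on no knockout there, at least 1.55-fold apart. The called difference rests partly on signal near the background, and the other groups may have brought the probe past the filter on dim probes. The call, counted in the share of the hypoxia list, is therefore not support, and no p is given. Leaving out any 1 of 10 arrays ended it. The regulators of the hypoxia list did not pass: Hif1a, the oxygen-regulated subunit, had -0.53 (adjusted p = 0.223), Arnt, its partner, had 0.00 and Vhl, which targets it for destruction, had 0.41 (adjusted p = 0.141). Of 9 YAP and TAZ targets tested 1, Ankrd1, was called (11.1%, background 1.76%), 7 were negative and the median was -0.33. At E9.0 4 of the 9 were called lower in knockouts, against 9.52% of all features.

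Glycolysis leaned the same way with fewer calls. Of 20 genes tested, 18 were positive with a median of 0.39, and 2 rose (10% of the list, background 1.76%). At E9.0 8 of the 20 were called higher in knockouts and none lower, against 11.3% and 9.52% of all features. The list mean lay between 9.37 and 9.69 on the 4 knockout arrays at E9.0 and between 8.65 and 9.29 on the other 12. As for hypoxia genes, knockout arrays at E8.5 spread widely, from 8.65 to 9.29.

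Pfkp, the platelet form of phosphofructokinase that commits sugar to glycolysis, had one of the widest gaps. Controls read 5.49, 5.49, 6.26 and 5.64 at E8.5, then 5.38, 4.84, 5.03 and 4.87 at E9.0. Knockouts read 5.40, 5.90, 6.66 and 5.10 at E8.5, then 7.14, 7.72, 7.64 and 7.24 at E9.0. Knockouts at E9.0 were above every other array, and the E9.0 effect was 5.3-fold. The difference was 2.37 ± 0.37 (adjusted p = 0.00554), and a second probe gave 1.00, called as well when probes were tested singly (adjusted p = 0.0472). Aldoc, an aldolase, had 2.05 ± 0.371 (adjusted p = 0.0111): controls fell by 1.08 with stage and knockouts gained 0.97. Most enzymes of the path moved less, among them Hk2 (0.70, adjusted p = 0.0684), Eno2 (0.68, adjusted p = 0.084) and Ldha (0.17, adjusted p = 0.692).

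**Figure D2:**
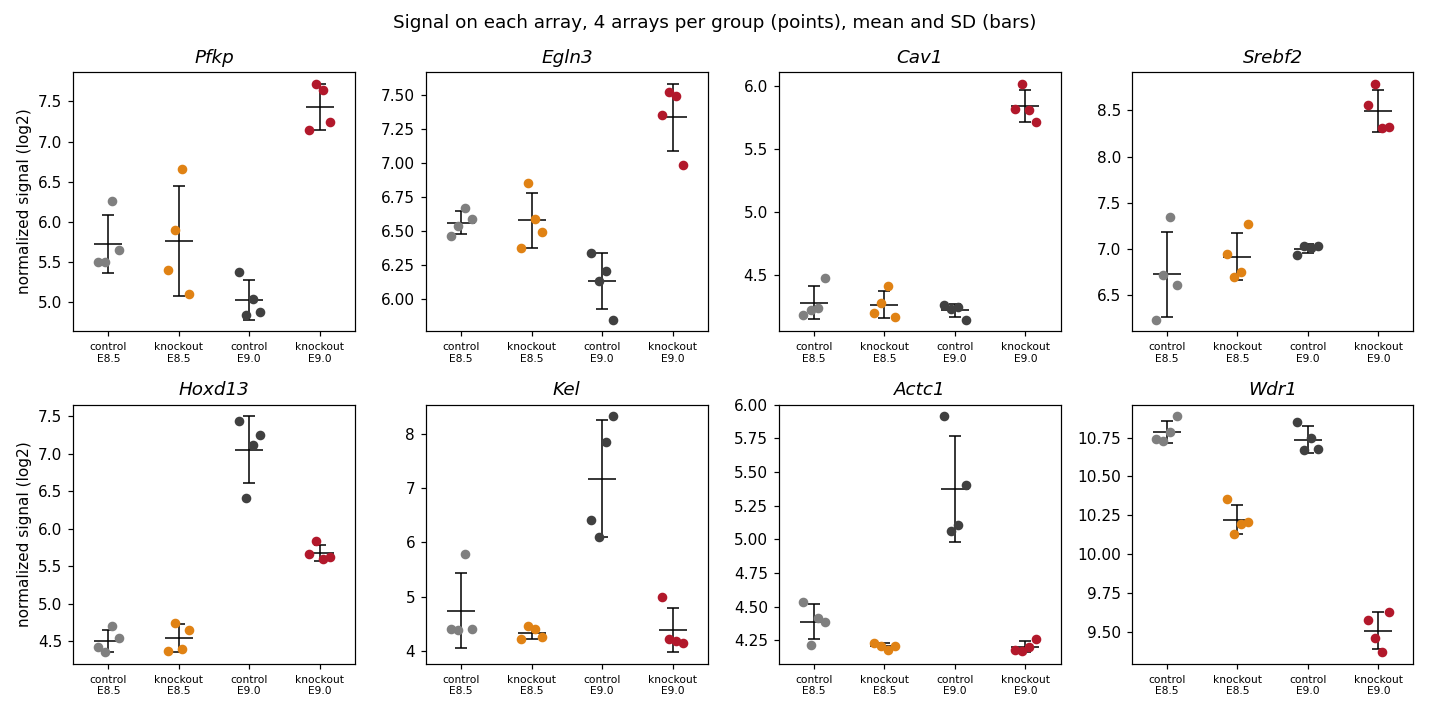
Normalized log2 signal of 8 genes on each of the 16 arrays (points), with the mean and SD of the 4 arrays of each group (bars), by genotype and stage. Pfkp, Egln3, Cav1 and Srebf2 are raised on the 4 knockout arrays at E9.0, Hoxd13, Kel and Actc1 are raised on the 4 control arrays at E9.0, and Wdr1 is lower in knockouts at both stages.

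Cholesterol synthesis genes stood higher at E9.0 than at E8.5 in both genotypes, by a median of 0.78 in controls and 1.58 in knockouts. Sterol regulatory element binding protein 2, encoded by Srebf2, turns on this path when cell sterol is low. All 17 genes tested had a positive difference, with a median of 0.70, and 2 rose (11.8% of the list, background 1.76%). At E8.5 the median knockout effect was -0.01, and at E9.0 it was 0.69, with 15 of 17 called higher, against 11.3% of all features. The list mean was 7.06 to 7.42 in controls and 7.07 to 7.36 in knockouts at E8.5, then 7.64 to 8.23 in controls and 8.39 to 8.73 in knockouts at E9.0. Groups overlapped at E8.5 and not at E9.0. One control array at E9.0, replicate 2, stood highest of its group at 8.23, and without it 7 of the 17 were called. The count was 5 without control replicate 1 at E8.5, 4 without knockout replicate 3 at E8.5, and 1 on leaving out any 1 of 9 other arrays.

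Srebf2 read 6.23, 6.71, 7.34 and 6.6 in controls at E8.5, then 6.93, 7.03, 7.01 and 7.03 at E9.0. Knockouts read 6.94, 6.70, 6.75 and 7.27 at E8.5, then 8.56, 8.79, 8.31 and 8.32 at E9.0. Knockouts at E9.0 were apart from all other arrays. The difference was 1.30 ± 0.257 (adjusted p = 0.0172). Mvd, which makes isopentenyl diphosphate, had 1.14 ± 0.248 (adjusted p = 0.0281), and its call ended on leaving out any 1 of 10 arrays. Insig1, which holds the SREBP complex in the endoplasmic reticulum, had 1.20 (adjusted p = 0.0896), and Hmgcs1, which makes HMG-CoA, had 0.69 (adjusted p = 0.0739).

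Among adhesion, integrin and matrix genes 2 of 18 rose (11.1%, background 1.76%), and the list's median was -0.03. Cav1, the coat protein of caveolae, was near the background in all but the E9.0 knockouts. It read 4.18, 4.22, 4.24 and 4.48 in controls and 4.20, 4.28, 4.41 and 4.17 in knockouts at E8.5, and 4.26, 4.23, 4.24 and 4.15 in controls at E9.0. In knockouts at E9.0 it read 5.82, 6.02, 5.81 and 5.72. The probe was detected on 1 of the other 12 arrays, so the E9.0 gap is at least 2.67-fold. Only detection on the E9.0 knockouts brought it past the filter on dim probes, so its call is not support and no p is given. Cav1 is 1 of the 2 genes in the share above, which is therefore a description only. Itgb5, the beta-5 integrin that binds vitronectin, differed as controls fell by 0.91 with stage while knockouts did not change by the test, a difference of 0.80 ± 0.17 (adjusted p = 0.0261). Leaving out any 1 of 6 arrays ended that call.

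Of the amino acid response genes, driven by ATF4, 1 of 18 rose (5.56%, background 1.76%) and the median was 0.05. That gene, Chac1, which degrades glutathione, had the largest difference of all named genes, 2.50 ± 0.592 (adjusted p = 0.0401). Its 4 knockout arrays at E9.0 were 5.81, 7.03, 9.15 and 7.60, all above the other 12 arrays, which lay between 4.92 and 5.67. The p lies near the threshold: leaving out any 1 of 12 arrays ended the call, with an adjusted p of up to 0.0867, but leaving out the highest array, knockout replicate 3, did not. Circadian output genes had 2 of 14 rise (14.3%, background 1.76%). One was Bhlhe40 and the other Dbp, a PAR-domain activator under clock control, with 1.46 ± 0.184 (adjusted p = 0.0013). Dbp read 8.42, 8.73, 8.62 and 8.51 in knockouts at E9.0, and the other 12 arrays lay between 6.97 and 7.79.

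**Figure D3:**
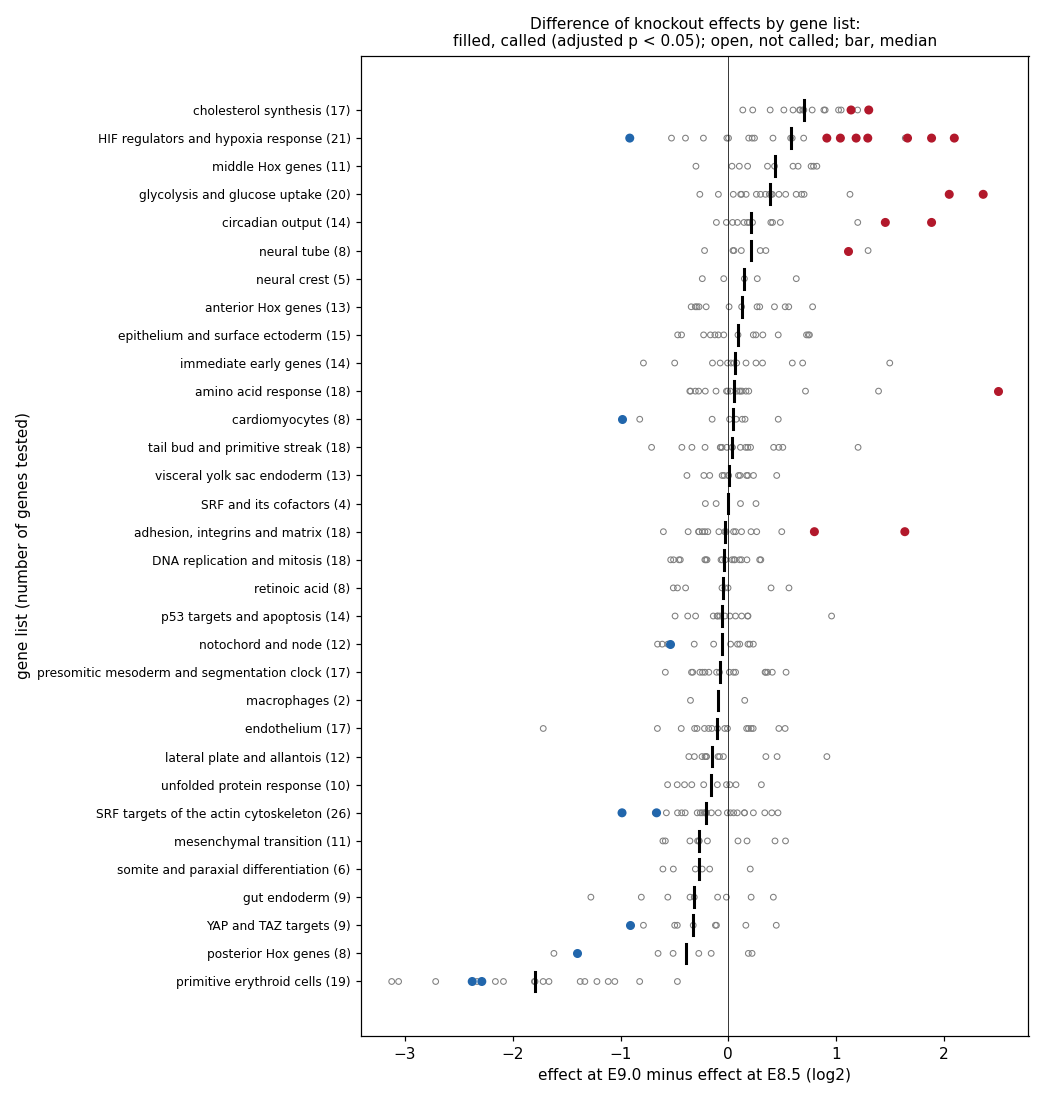
Difference of knockout effects (x axis, log2, E9.0 minus E8.5) of each tested gene in 32 lists, sorted by the list's median (black bar). Filled points are called higher (red) or lower (blue), and open points are not called. All 17 cholesterol synthesis genes lie right of 0 and all 19 erythroid genes left of it.

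Primitive red cell genes went the other way and had the lowest median of the lists. Of 22 erythroid genes listed 19 were tested, all 19 had a negative difference, and the median was -1.79. Only Kel and Car2 fell by the test (10.5%, background 1.76%). At E9.0 17 of 19 were called lower in knockouts, against 9.52% of all features. The median change with stage was 2.20 in controls and 0.29 in knockouts. In a bulk sample fewer red cells and less RNA in each cannot be told apart.

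The erythroid list mean was 5.64, 5.16, 8.02 and 5.90 on the control arrays at E8.5 and 5.45, 5.97, 5.98 and 4.71 on the knockout arrays. At E9.0 it was 8.04, 8.05, 9.24 and 9.35 on control and 7.24, 6.34, 6.02 and 5.20 on knockout arrays. Every control at E9.0 exceeded every knockout there, while control replicate 3 at E8.5 was near the level of E9.0. Without that array 6 members were called and the median was -2.60, and over all 16 ways of leaving out 1 array it ran from -2.60 to -1.22, with 0 to 6 members called. The count was 0 without control replicate 2 or 4 at E8.5, control replicate 3 or 4 at E9.0, or knockout replicate 4 at E9.0.

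Kel encodes a red cell surface endopeptidase, the Kell antigen. Its RefSeq promoter, at chr6:41704276-41704575 on the minus strand (GRCm38.p6), carries the letters AGATAA, a form of the GATA factor sequence, marked in capitals.
Kel: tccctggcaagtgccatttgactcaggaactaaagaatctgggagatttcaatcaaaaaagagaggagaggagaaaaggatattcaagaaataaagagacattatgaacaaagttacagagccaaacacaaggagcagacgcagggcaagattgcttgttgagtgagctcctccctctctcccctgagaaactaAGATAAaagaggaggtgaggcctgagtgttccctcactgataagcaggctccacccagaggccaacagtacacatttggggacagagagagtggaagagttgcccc
The motif, searched on both strands, was in 5 of the 13 tested erythroid genes with a promoter in the table (38.5%), against 8.03% of all tested genes. Kel read 4.41, 4.38, 5.78 and 4.41 in controls at E8.5, then 6.42, 6.10, 7.84 and 8.32 at E9.0. In knockouts it read 4.22, 4.45, 4.41 and 4.25 at E8.5, then 4.99, 4.21, 4.18 and 4.15 at E9.0. All E8.5 arrays but control replicate 3 lay near the background, so a knockout effect on Kel there could be missed. The difference was -2.38 ± 0.567 (adjusted p = 0.0407), and leaving out any 1 of 10 arrays ended the call. Car2, a carbonic anhydrase abundant in red cells, had -2.29 ± 0.479 (adjusted p = 0.0235), a call that ended on leaving out any 1 of 5.

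Other genes that fell by the largest amounts lie outside the lists. Slc39a8, a zinc and manganese importer, had -1.96 ± 0.418 (adjusted p = 0.0262): knockouts lost it and controls did not change by the test. Abcb10, a mitochondrial transporter needed for heme synthesis in red cells, had -1.36 ± 0.335 (adjusted p = 0.0479), with controls gaining 1.27 and knockouts level. A second Abcb10 probe gave -1.11, not called when probes were tested singly (adjusted p = 0.131). Leaving out any 1 of 7 arrays ended the call of Slc39a8 and any of 11 that of Abcb10. The erythroid list mean was likewise lower in knockouts than in controls at E9.0, but within knockouts it went from 5.53 to 6.20 with stage while Slc39a8 went from 6.35 to 4.85. Its part in these 2 results was not tested.

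**Figure D4:**
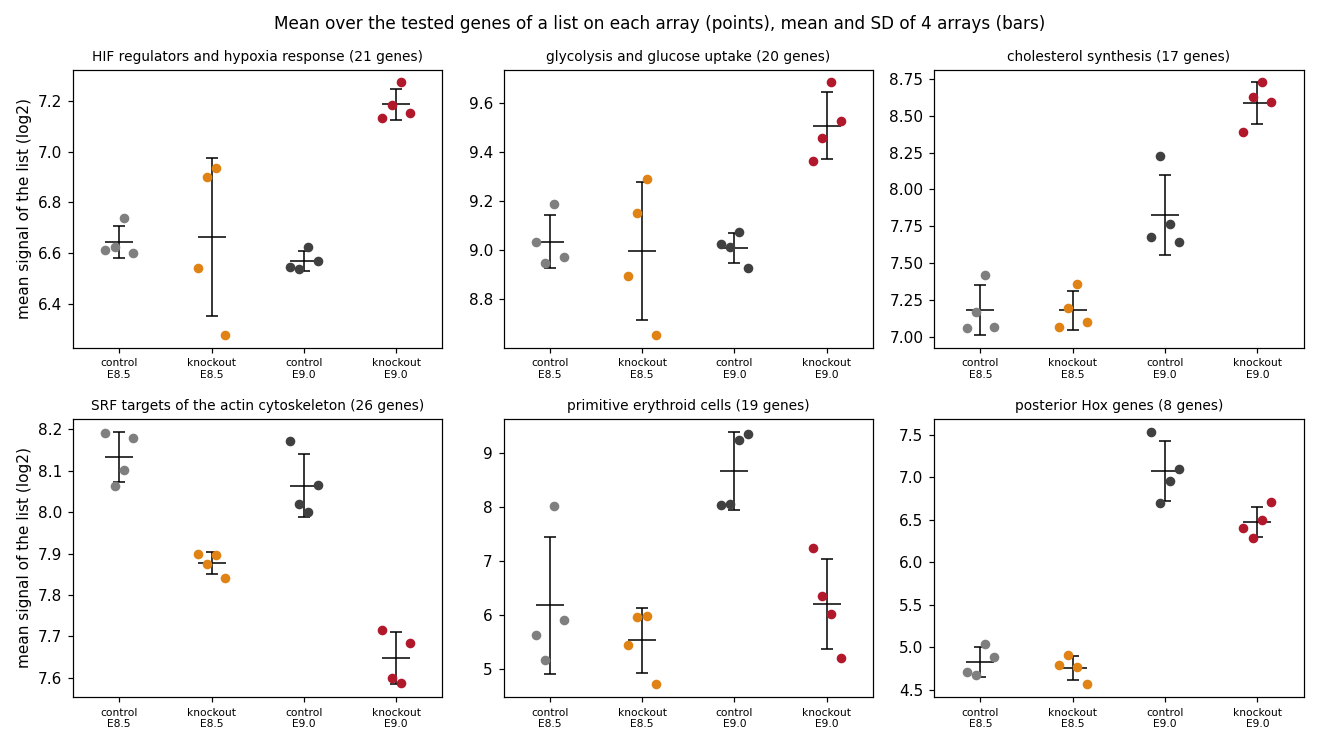
Mean log2 signal over the tested genes of 6 lists on each of the 16 arrays (points), with the mean and SD of the 4 arrays of each group (bars). Hypoxia, glycolysis and cholesterol lists are highest on the 4 knockout arrays at E9.0, and the erythroid list is highest on the 4 control arrays at E9.0, with control replicate 3 at E8.5 near them. The posterior Hox list is high at E9.0 in both genotypes, from 6.70 to 7.54 in controls and from 6.29 to 6.70 in knockouts, and the 2 groups just overlap.

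Hox genes are switched on in order along their clusters as the axis extends, and the posterior ones are the last to come on. Of 8 tested posterior Hox genes 1 fell in the difference (12.5%, background 1.76%), 6 were negative, and the median was -0.39. Leaving out 1 array moved the median between -0.65, without knockout replicate 4 at E8.5, and -0.18, without knockout replicate 2 at E9.0. Their median gain with stage was 1.88 in controls and 0.77 in knockouts. At E9.0 3 were called lower in knockouts, against 9.52% of all features. Hoxd13, the last gene of its cluster and a patterning gene of the hindmost body, read 4.43, 4.36, 4.70 and 4.55 in controls at E8.5, then 7.43, 6.41, 7.11 and 7.25 at E9.0. Knockouts read 4.37, 4.75, 4.39 and 4.65 at E8.5, then 5.66, 5.83, 5.60 and 5.62 at E9.0. Both genotypes gained it, controls by 2.55 and knockouts by 1.14, and the difference was -1.41 ± 0.232 (adjusted p = 0.00632). Its E8.5 values lay near the background, where 3 of the 8 posterior Hox genes in controls and 2 in knockouts were detected on no array. A knockout effect on Hoxd13 at E8.5 could therefore be missed. Hoxd12, its neighbour, had -1.62 (adjusted p = 0.198). Middle Hox genes leaned up, with 10 of 11 positive and a median of 0.43 (0.26 without knockout replicate 4 at E8.5), but none was called. The nearest was Hoxa7 at 0.79 (adjusted p = 0.0949).

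Genes that define the caudal end were present and did not pass the test of the difference. None of 18 tail bud and primitive streak genes and none of 17 presomitic genes was called, with medians of 0.04 and -0.08. Cdx2, which keeps the tail bud growing, had 0.18 ± 0.128 (adjusted p = 0.508). Wnt3a and Fgf8, the posterior signals of the tail bud, had -0.07 ± 0.28 (adjusted p = 0.924) and -0.01 ± 0.202 (adjusted p = 0.983), with signals of 9.34 and above on all 16 arrays. Tbx6, needed for presomitic fate, had 0.41 ± 0.257 (adjusted p = 0.443), and a second probe gave -0.53. T and Msgn1 gave no tested feature. No somite or mesenchymal transition gene was called either, with medians of -0.27 in both lists, which on leaving out 1 array ran from -0.42 to -0.12 and from -0.30 to -0.16. Noto, a homeobox gene of the node and notochord, fell by 0.54 on the log2 scale (SE 0.12, adjusted p = 0.0311), and leaving out any 1 of 12 arrays ended the call. Hes5, a Notch target in neural progenitors, had 1.11 ± 0.266 (adjusted p = 0.0407), a call that ended on leaving out any 1 of 13. A second Hes5 probe gave 1.08, not called when probes were tested singly (adjusted p = 0.0593). Controls lost Hes5 with stage, from between 5.80 and 6.45 to between 4.16 and 5.14, and knockouts stayed between 5.64 and 6.54.

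Markers of other tissues that the dissection could include were mostly not called. Visceral yolk sac genes had median changes with stage of -3.04 in controls and -2.59 in knockouts, and 0 of 13 were called for the difference, with a median of 0.00. At E9.0 their mean was near the background, 4.46 in controls and 4.56 in knockouts. There 6 and 5 of the 13 genes were undetected. At E8.5 the mean ran from 6.84 to 8.25 on control and from 6.59 to 8.83 on knockout arrays. A difference in this list could therefore be missed. Endothelial genes had 0 of 17 called and a median of -0.10, although Emcn, endomucin, stood at -1.72 (adjusted p = 0.0739). Gut endoderm had 0 of 9 and a median of -0.32, which ran from -0.45 to 0.00 on leaving out 1 array. Neural tube genes had 7 of 8 positive and a median of 0.21. Of these 1, Hes5, was called (12.5%, background 1.76%), and 3 were called higher in knockouts at E9.0, against 11.3% of all features. Irx3, a homeobox gene of the neural tube, had 1.30 (adjusted p = 0.0957). Cardiac genes had 1 of 8 called (12.5%, background 1.76%), 5 positive and a median of 0.04. That gene, Actc1, is also in the SRF target list, and its call is not support, as said there. Epithelium, lateral plate, neural crest, macrophages, retinoic acid, unfolded protein response, p53, replication and anterior Hox lists had 0 called, and SRF cofactors had 0 of 4.

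Among the remaining genes with the largest values, several had roles outside these lists. Nrn1, a neurite growth factor also known to respond to hypoxia, rose by a difference of 2.16 ± 0.333 (adjusted p = 0.00554). Controls lost it (5.98, 5.73, 6.26 and 5.99, then 5.03, 4.91, 4.98 and 4.65) and knockouts gained it (5.75, 6.22, 6.52 and 5.22, then 6.35, 7.15, 7.37 and 7.08). Chst1, a sulfotransferase of keratan sulfate, did likewise with 1.76 ± 0.236 (adjusted p = 0.00174). Mgarp, a mitochondrial protein, had 1.61 ± 0.398 (adjusted p = 0.0483), and leaving out any 1 of 11 arrays ended the call. On the low side, Edn1, the vasoconstrictor peptide endothelin, was detected on all 4 controls at E9.0 (5.64, 5.41, 5.59 and 6.20) and on no knockout there (4.43, 4.19, 4.19 and 4.23), at least 2.38-fold apart. Htra3, a secreted serine protease, was detected on no E8.5 array and on all controls at E9.0, a gain in controls of at least 1.70-fold. Ambp, a plasma protein precursor, fell by 1.59 on the log2 scale (SE 0.306, adjusted p = 0.015), a call lost with an offset of 50, with no background correction and with the authors' deposited values. Tmem98, a membrane protein, fell by 1.08 (SE 0.186, adjusted p = 0.00867), and controls gained it by 1.87 and knockouts by 0.78. A second Tmem98 probe gave -0.88, not called when probes were tested singly (adjusted p = 0.0659). Hsd11b2, which inactivates glucocorticoids, fell by 1.31 (SE 0.265, adjusted p = 0.0202), a call lost with the sex covariate. Myl1, a fast muscle myosin light chain, fell by 1.00 (SE 0.223, adjusted p = 0.031), and its knockouts lost it while controls stayed level. Sf3b4, a splicing factor, stood at -1.07 (adjusted p = 0.0287), but another of its probes gave -0.15. Leaving out any 1 of 6 arrays ended the call of Myl1 and any of 5 that of Sf3b4.

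The E8.75 arrays, 4 knockouts and 4 controls that the comparison did not use, give the knockout effect on the same genes at 1 other stage. An effect at 1 stage is not a change between stages, so a shared sign cannot show that the effect changed. Fitted alone, they called 5 of the 10679 features (0.0468%) and 1 of the 188. The E8.75 knockout effect had the sign of the difference in 146 of the 188 (77.7%), against 57.8% of all features. The share was 78.9% among those with a higher difference (101 of 128, against 57.2% of all positive features) and 75% among those with a lower one (45 of 60, against 58.3%). Bhlhe40 had 1.26 ± 0.322 there, Ddit4 0.81 ± 0.226, Edn1 -1.46 ± 0.365 and Actc1 -1.35 ± 0.338, none past the adjusted threshold. Some genes went against the sign, among them Ambp at 0.67 ± 0.186, and the cholesterol list sat at a median of -0.03. Srf was at -1.04 ± 0.342. Tissue content differed between these arrays: the mean log2 signal of the 13 yolk sac genes was 6.13, 7.16, 6.01 and 6.36 in controls and 9.67, 7.31, 9.35 and 9.31 in knockouts, a median effect of 2.83. At E8.5 and E9.0 the median effect of that list was 0.05 and 0.00, with the wide spread at E8.5 and the low signal at E9.0 given above. The part of yolk sac RNA in the E8.75 values, that of Ambp included, was not tested.

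**Figure D5:**
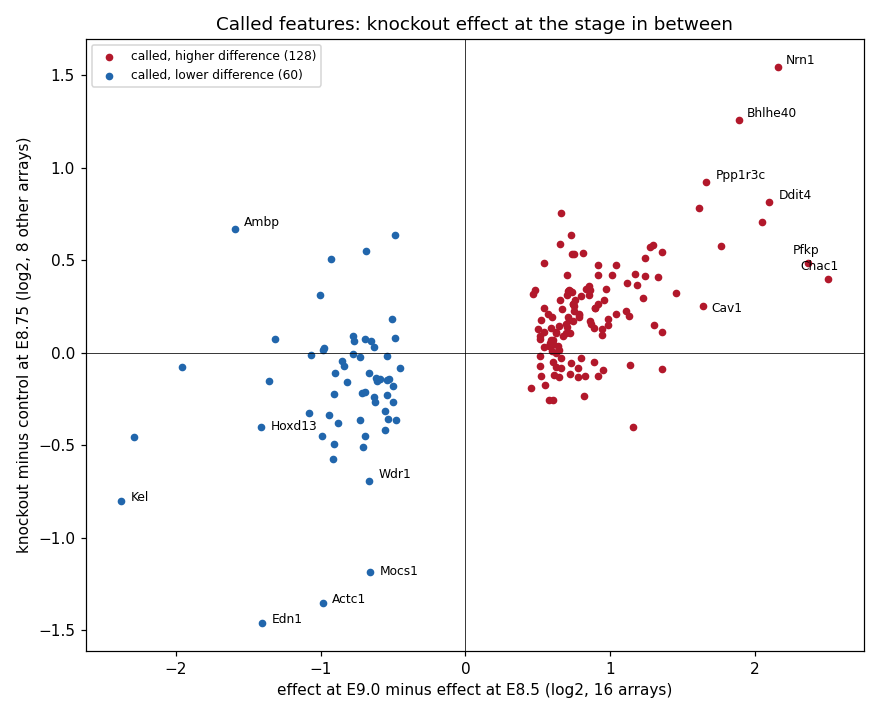
Difference of knockout effects between E9.0 and E8.5 (x axis, log2, 16 arrays) against the knockout effect on the 8 separate E8.75 arrays (y axis, log2) for the 188 called features, each a point. Most points lie in the upper right and lower left, 146 of 188, and Ambp is an exception.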

How the data were processed

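Biotinylated cRNA made from total RNA was read on Illumina bead arrays, per the labels. The deposited non-normalized table gives the mean bead intensity of each probe and array on a linear scale and a detection p-value for each, per the file headers. The deposited value table holds intensity already scaled to a common distribution, as its values show, and served as an alternative. GenomeStudio was used per the submitters' processing notes, its version not given in the sources used here.

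Columns were matched to samples by title. The 16 arrays were background corrected by normexp (offset 16), quantile normalized and log2 transformed by neqc (limma 3.58.1, R 4.3.3). The filter on dim probes asked for detection p below 0.05 on 4 or more arrays and kept 14487 of 25697. The brightest probe stood for each symbol (23978 probes carry 1 symbol, 1719 none, and 23962 were found in the GRCm38.p6 gene table). Means of the 4 groups were fitted with lmFit and eBayes, and p-values were adjusted by Benjamini-Hochberg over 10679 features. On data simulated with independent noise at the fitted spread of each feature, 90% of differences of 1 log2 unit and 100% of 2 units were recovered. Of the calls there, 5.47% were false. Such noise lacks deviations that genes share on a real array, so these shares do not measure the power of the real comparison.

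The comparison, the gene lists and the rules were chosen with earlier results of these data known. Named were Srf, the 10 largest differences in each direction among called genes detected in every group, up to 5 called genes per direction undetected in a group, the 8 called genes with the largest control change, up to 4 called members of each list or its smallest p, and defining genes of the caudal end. A fold against an undetected group is a lower bound, with that group at the higher of its own signal and the lowest detected signal of each array. The p of a gene undetected in a group rests partly on signal near the background. Its high group may also have brought it past the filter, so such a p supports nothing. No column was left unused. Alternatives were other scalings, filters, probe rules, prior settings, array weights, a sex covariate, all 24 arrays in 1 fit, the replicate number as a block, and leaving out each array.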

Additional observations from a re-analysis of the deposited data

Results flagged for a closer look

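Within a group of 4 arrays, 1 array lay far from the other 3 for 24 of the 328 gene and group combinations checked (7.32%, where chance gives about 1 in 20). In control replicate 3 at E8.5 these were Kel at 5.78, Car2 at 7.71 and Aacs at 8.02, all high. Control replicate 1 at E8.5 was high for Tmem255a (4.42) and control replicate 2 for Wnt3a (10.71). Control arrays at E9.0 stood apart for Mgarp (5.72, low, replicate 4), Dbp (7.33, high, replicate 3), Atg9b (4.70, high, replicate 3) and Emcn (8.19, low, replicate 2).

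Knockout arrays at E8.5 stood apart for Pik3ip1 (4.48, high), Atg9b (4.25, low), Slc39a8 (6.02, low) and Glb1 (6.84, low) in replicate 2, for Abcb10 (5.94, high) in replicate 1, and for Dync1i1 (5.76, high), Vegfa (7.33, low) and Olfml3 (7.08, low) in replicate 4. Knockout arrays at E9.0 stood apart for Pik3ip1 (5.09, low), Edn1 (4.43, high) and Kel (4.99, high) in replicate 1, for Pcyt2 (9.14, high) and Arsa (6.92, high) in replicate 2, and for Emcn (6.24, low) and Acaca (10.03, low) in replicate 4.

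The knockout effect differed between the 2 stages, by the test of the difference itself, for 188 features.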

How the results depend on the processing

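Of 59 called genes checked, 29 kept their call on leaving out each of the 16 arrays in turn, 28 kept it under all other alternatives, and none changed direction. An offset of 50, no background correction and the authors' values each ended the calls of Chac1, Mgarp, Hes5, Noto, Ankrd1, Abcb10, Slc39a8, Kel and Ambp, and the authors' values that of Actc1. Fitting all 24 arrays ended those of Hes5, Noto, Ankrd1, Actc1, Myl1, Acaca, Pcyt2, Arsa, Asah1, Npc2, Mocs1 and Cited2. Testing dim probes too ended those of Chac1, Ppp1r3c, Mgarp, Mvd, Hes5, Ankrd1, Myl1, Sf3b4, Abcb10, Slc39a8, Car2, Kel, Pcyt2, Glb1, Npc2 and Cited2. The trend and robust prior ended those of Chac1, Mgarp, Abcb10, Slc39a8, Car2 and Kel. The sex covariate ended those of Chac1, Mvd, Hes5, Noto, Ankrd1, Myl1, Hsd11b2, Abcb10, Kel, Pcyt2, Asah1, Glb1, Npc2, Cln3 and Cited2, and the replicate block those of Ankrd1, Abcb10, Pcyt2 and Npc2. The uncalled genes Fgf8 and Wnt3a, near 0, changed sign: Fgf8 was 0.0843 with the sex covariate and between -0.12 and 0.10 on leaving out 1 array, with 0.05, 0.05, 0.01, 0.10, 0.04 and 0.09 above 0, and Wnt3a was 0.171 with array weights and between -0.23 and 0.14, with 0.14, 0.01 and 0.06 above 0. Leaving out 1 array moved the count of features whose effect differed between 74 and 398 (higher 50 to 251, lower 22 to 147). The E8.5 count then ran from 2 to 8, the E9.0 count from 1603 to 2582, the control change from 3101 to 4116, the knockout change from 3128 to 3868 and the share with the same sign at E8.75 from 74.5% to 79.3%. With all 24 arrays in 1 fit the counts were 93 (64 higher, 29 lower), 1 at E8.5 and 1467 at E9.0. Array weights gave 588 (340 higher, 248 lower) and the sex covariate 121 (82 higher, 39 lower). The E8.5 count was 4 with an offset of 50, with no background correction, with the authors' values and with no filter on dim probes, and 3 with every probe by itself. The cause was not tested. Deviations of same-numbered control and knockout arrays of 1 stage correlated with r from -0.271 to 0.41 (8 pairs, 2 over 0.1). With 4 arrays per group these values cannot settle whether the numbers pair the samples. With the replicate number as a block 173 features differed, 146 of them shared, and 4 were called at E8.5. The number of arrays limits the precision, and dim genes carry a signal near the background.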

Other observations

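Genes around lipid supply beyond the sterol path also had higher differences. These 6 were picked after their values were seen, so their agreement in direction supports nothing, and their differences ran from 0.69 to 1.36 on the log2 scale (adjusted p from 0.000263 to 0.0401). Aacs, which turns acetoacetate into acetoacetyl-CoA, had the smallest p of the 6. It read 7.71, 7.69, 8.02 and 7.65 in controls and 7.63, 7.76, 7.71 and 7.46 in knockouts at E8.5, then 8.35, 8.60, 8.51 and 8.25 in controls and 9.51, 9.76, 9.64 and 9.71 in knockouts at E9.0. The 4 knockout arrays at E9.0 were above all others, and the difference was 1.35 ± 0.148 (adjusted p = 0.000263). Scd1, which puts the double bond into stearate, had 1.35 ± 0.212 (adjusted p = 0.00554). Acaca, which makes malonyl-CoA, had 0.69 ± 0.123 (adjusted p = 0.00941). Lpin1, a phosphatidate phosphatase, had 1.27 ± 0.209 (adjusted p = 0.00632). Acss2, an acetyl-CoA synthetase, and Pcyt2, of phosphatidylethanolamine synthesis, had 0.86 and 0.87. Leaving out any 1 of 11 arrays ended the call of Pcyt2, and leaving out 1 array that of Acss2. At E8.5 the 6 knockout effects lay between -0.13 and 0.10.

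A set of 7 lysosomal genes, picked the same way, had differences from 0.73 to 0.78 (adjusted p from 0.00632 to 0.0401). Leaving out any 1 of 11 arrays ended the calls of Glb1 and Cln3, any of 10 that of Npc2 and any of 8 that of Asah1, and 1 array each decided Gm2a and Ctsf. Arsa, which removes sulfate from sulfatide, read 6.55, 6.78, 6.66 and 6.74 in controls at E8.5, then 5.98, 5.79, 5.99 and 6.04 at E9.0. Its knockouts stayed level at 6.74, 6.63, 6.81 and 6.84 and then 6.71, 6.92, 6.73 and 6.74. Asah1, a ceramidase, showed the other form: knockouts went from between 9.31 and 9.61 to between 9.96 and 10.56 while controls lay between 9.32 and 9.67. Gm2a, Glb1, Npc2, Cln3 and Ctsf, which serve ganglioside, galactoside, cholesterol and protein turnover in lysosomes, completed the set.

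Mocs1, which starts molybdenum cofactor synthesis, was one of the 2 called features already called at E8.5, with Wdr1 the other. Controls read 9.39, 9.15, 9.53 and 9.49 at E8.5, then 9.90, 9.98, 10.01 and 9.98 at E9.0. Knockouts read 8.60, 8.43, 8.54 and 8.68, then 8.45, 8.29, 8.61 and 8.57, below all controls at both stages. The difference was -0.66 ± 0.137 (adjusted p = 0.0235), and at E8.75 the effect was -1.19. Leaving out any 1 of 4 arrays ended the call (adjusted p up to 0.0547), as did fitting all 24 arrays together. Ecm1, a secreted matrix protein, and Olfml3, a matrix scaffold protein, were gained by controls and not by knockouts, with differences of -0.99 ± 0.171 (adjusted p = 0.00867) and -0.88 ± 0.177 (adjusted p = 0.0202). Cited2, a CBP/p300 binding protein that restrains HIF, had -0.94 ± 0.205 (adjusted p = 0.0281), and leaving out any 1 of 6 arrays ended the call. All of these were chosen after their values were seen.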
